A study of Arabidopsis thaliana with 2 samples.

Results

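SAG12, SAG13, SAG21, SAG29 and DIN2 are 5 Arabidopsis genes named for their transcripts in aging or darkened leaves, and they are described here in whole plants of the csb3 mutant and of wild-type Col-0. They were chosen by name, each through its probe set, and make up 5 of the 13504 genes that could be named on the ATH1 array. The csb3 plants carry the csb3 mutation in the Columbia (Col-0) background, a single mutant line with constitutive defence gene expression, and the wild-type plants are Col-0. csb3 was isolated in a screen with a reporter driven by a tomato subtilase promoter, and whether the sampled plants carried that reporter is not given in the sources used here. Both genotypes were 5 weeks old and by the labels had been grown at 23 °C and 60% humidity under 10 h of light and 14 h of dark. The series describes a collection of 5 plants, and the values analysed are those of 1 csb3 array and 1 Col-0 array. Without replicates no p-value can be given, and the number of arrays limits the precision.

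Leaf senescence is the ordered dismantling of an old or starved leaf, in which chlorophyll and proteins are broken down and nitrogen and sugars are exported to growing organs. Transcripts that accumulate during this programme were collected as senescence-associated genes (SAG), and those that accumulate in darkened leaves as dark-inducible genes (DIN). The 2 collections overlap, and many of their genes also respond to salicylic acid (SA), pathogens, reactive oxygen or sugar shortage, so a member can be active without a leaf being old. SAG12 encodes a papain-type cysteine protease and is the customary marker of age-dependent senescence. SAG13 encodes a short-chain dehydrogenase related to tropinone reductases, SAG21 a small late embryogenesis abundant (LEA) protein also called AtLEA5, SAG29 the sugar transporter SWEET15, and DIN2 the beta-glucosidase BGLU30.

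The values are MAS5 signals, the brightness of a probe set on a linear scale, and both arrays had been brought to the same trimmed mean. Any signal under 50 was raised to 50, and the csb3 signal was then divided by the Col-0 signal. A fold with 1 signal below 50 is therefore a lower bound, and with both below 50 no fold is given. A gene is called higher or lower when this ratio reaches 2-fold. Of the 22810 probe sets, 13418 had 50 or more in csb3, 13529 in Col-0 and 12540 on both arrays. Between probe sets of the same gene, a single log2 ratio had an SD of 0.65 (45 genes), which measures spread within the array pair and not between plants. HDS, the gene of isoprenoid synthesis affected in csb3, has no named probe set here, so the genotype labels were not checked through it.

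All 5 genes had a higher signal in csb3 than in Col-0, and 4 of them were past 2-fold and also past 4-fold. Direction alone carries little weight. Where neither signal was floored, the median log2 ratio was 0.08, so higher in csb3 was the commoner direction there. Over the whole array 4.56% of probe sets were at least 2-fold higher in csb3 and 2.74% at least 2-fold lower, and 0.886% were at least 4-fold higher. The 4 are SAG12, SAG13, SAG21 and DIN2, and these same 4 owe their probe set name to the study's own list of genes changed in csb3. Of the 219 probe sets named through that list, 68.5% were at least 2-fold higher and 7.76% at least 2-fold lower in csb3. The direction of these 4 genes and their passing 2-fold are therefore not independent evidence and are given as a description. SAG29, which is named by the array annotation, is the member that did not reach 2-fold.

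**Figure D1:**
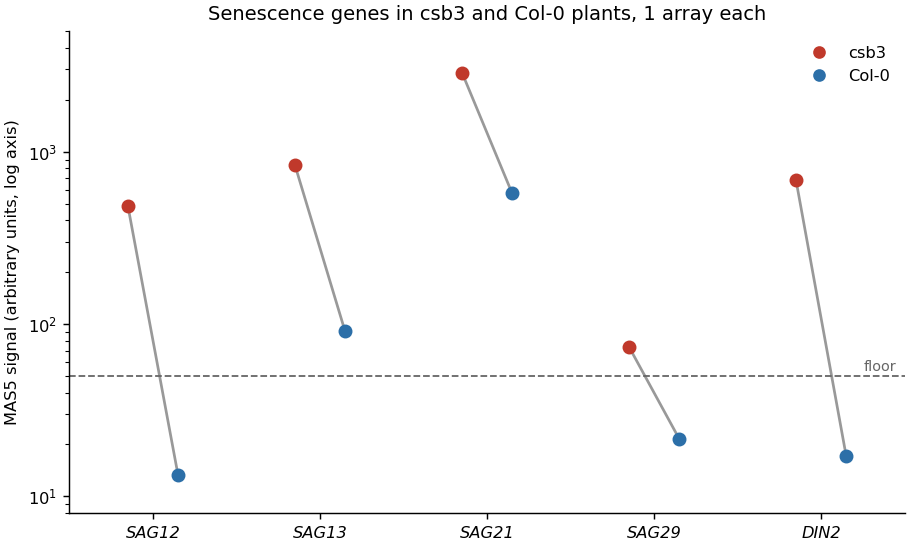
MAS5 signal (log axis) of the 5 senescence genes on the csb3 array (red, left) and the Col-0 array (blue, right), 1 array per genotype, with the dashed line at the floor of 50. All 5 red points lie above the floor, and the blue points of SAG12, SAG29 and DIN2 lie below it.

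Both enzymes most closely tied to old or darkened leaves were close to background in Col-0 and clearly measured in csb3. SAG12 (AT5G45890, chromosome 5) had a signal of 483.9 in csb3 and 13.3 in Col-0, which makes it at least 9.68-fold higher in csb3. DIN2 (AT3G60140, chromosome 3) had a signal of 682.6 in csb3 and 17.2 in Col-0, which makes it at least 13.7-fold higher in csb3. The size of both folds is set by where the floor lies, since the Col-0 signals carry no usable level. With a floor of 100 in place of 50 the bounds were log2 ratios of 2.27 for SAG12 and 2.77 for DIN2, and with a floor of 20 they were 4.60 and 5.09. Among probe sets below 50 in Col-0, 2.52% were at least 2-fold higher in csb3, and none of these could be called lower because the floor does not allow it. SAG12, SAG29 and DIN2 belong to this class.

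SAG13 and SAG21 were measured on both arrays, so their ratios are values and not bounds. SAG13 (AT2G29350, chromosome 2) had a signal of 836.5 in csb3 and 90.8 in Col-0, a 9.21-fold difference (log2 ratio 3.20). SAG21 (AT4G02380, chromosome 4) was far above the floor in both genotypes, with a signal of 2880.1 in csb3 and 574.6 in Col-0, a 5.01-fold difference (log2 ratio 2.33). These log2 ratios are 4.94 and 3.58 times the SD between probe sets of the same gene. Of the 12540 probe sets that reached 50 on both arrays, 6.44% were at least 2-fold higher in csb3 and 4.39% at least 2-fold lower. In the order of their ratios SAG13 was at rank 14 and SAG21 at rank 72. Both are named through the study's list of changed genes, so these ranks describe genes already selected for a change. Their log2 ratios differ by 0.88, which is within the SD of 0.92 for a difference between a pair of ratios, so the order of these 2 genes is not resolved. The lower bounds of DIN2 (log2 ratio 3.77) and SAG12 (3.27) lie above the measured ratio of SAG21. With a floor of 100 the bound of SAG12, 2.27, no longer does, while that of DIN2 still does. Both bounds also lie above the 3.20 of SAG13, but with a floor of 100 both lie below its 3.06 at that floor. The order against SAG13 is therefore not resolved.

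**Figure D2:**
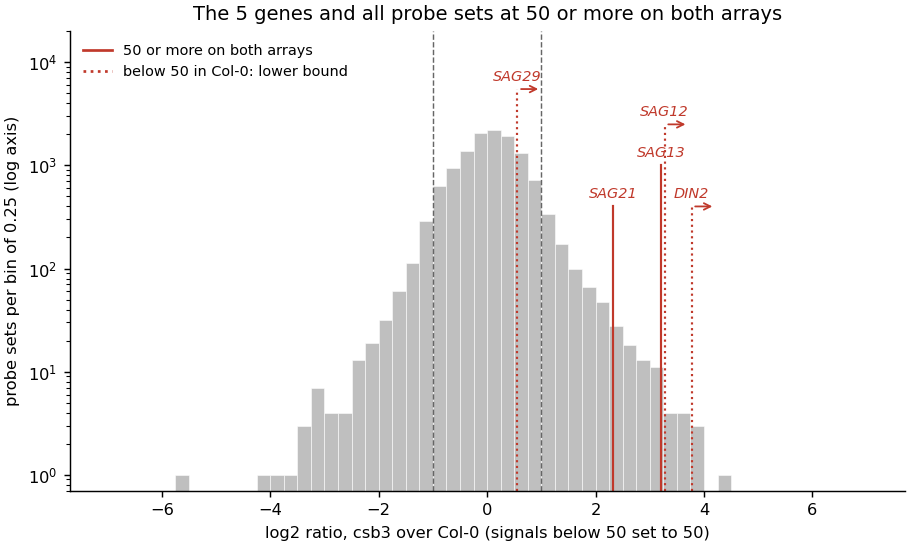
Number of probe sets (log axis) by log2 ratio of csb3 over Col-0, for the 12540 probe sets that reached 50 on both arrays, with the 5 genes marked and dashed lines at 2-fold. SAG13 and SAG21 (solid) lie in the upper tail at 3.20 and 2.33, and the dotted lines with arrows are lower bounds for DIN2, SAG12 and SAG29.

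SAG29 (AT5G13170, chromosome 5), the SWEET15 transporter that exports sucrose from senescing leaves, had a signal of 73.7 in csb3 and 21.6 in Col-0. The csb3 signal was at least 1.47-fold higher, short of 2-fold, with a log2 ratio of 0.56 that is below the SD of 0.65. Its call depends on the floor. With a floor of 20 or with none the log2 ratio was 1.77, past 2-fold, and with a floor of 100 both signals lie under the floor. At a floor of 20, 6.56% of all probe sets were at least 2-fold higher in csb3 and 5.66% at least 2-fold lower, so this setting also calls more genes in both directions. At this signal the difference was not detectable as a 2-fold change, which does not show that SAG29 is equal in csb3 and Col-0.

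Genes placed with SAG13 by position, and with DIN2, SAG29 and SAG21 by family name, were compared on the same arrays. Probe sets can read closely related transcripts, but likeness in sequence was not compared. The protease family of SAG12 was not compared as a whole. SAG13 stands in a run of neighbouring genes, from AT2G29290 to AT2G29370, that includes the tropinone reductase gene TRI. All 8 other genes of this run have a named probe set. None was at least 2-fold higher in csb3, 1 was lower and 7 were neither, and their log2 ratios ran between -1.26 and 0.57. Of the 7, AT2G29300 and TRI were below 50 on both arrays and could not be called. The gene on one side of SAG13, AT2G29340, had signals of 1439.3 in csb3 and 1297.7 in Col-0. The gene on the other side, AT2G29360, had signals of 499.9 in csb3 and 486.5 in Col-0. The gene that was lower is AT2G29290, with 476.9 in csb3 and 1138.9 in Col-0. The large ratio of SAG13 was thus not shared by any gene of the run that could be called.

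DIN2 lies near a pair of other beta-glucosidase genes, and neither reached 2-fold. BGLU16 had 571.1 in csb3 and 599.3 in Col-0, and BGLU27 was below 50 on both arrays. RefSeq names 46 other genes of this family, of which 22 have a named probe set. Of these 22, 2 were higher in csb3, none was lower, and 12 were below 50 on both arrays. All 22 are named by the annotation, and of all probe sets named that way 3.58% were higher and 2.64% lower. The 2 are PYK10 (BGLU23), the main beta-glucosidase of root endoplasmic reticulum bodies, which was at least 24.4-fold higher in csb3 (1219.8 in csb3 and 27.8 in Col-0), and BGLU25, which was 2.81-fold higher (502.9 in csb3 and 179.0 in Col-0). BGLU33 had 73.4 in csb3 and 146.0 in Col-0 and BGLU47 had 53.6 in csb3 and 104.9 in Col-0, both just short of 2-fold in the other direction.

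**Figure D3:**
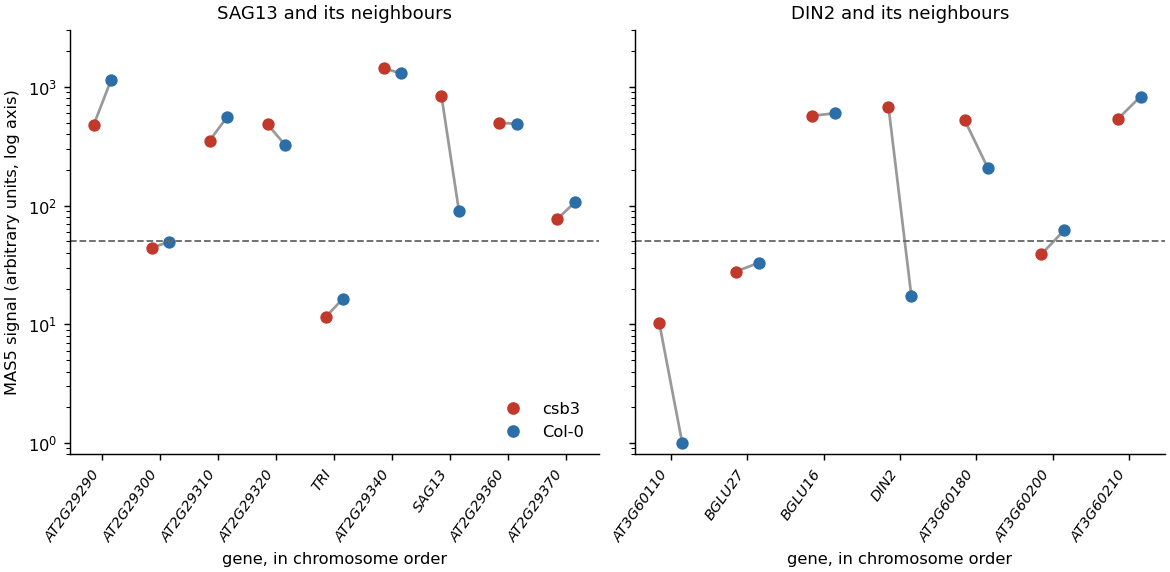
MAS5 signal (log axis) of SAG13 and DIN2 and of the genes beside them that have a named probe set, in chromosome order, with csb3 in red (left) and Col-0 in blue (right), and the dashed line at the floor of 50. SAG13 is higher in csb3 by more than any of the genes near it, of which AT2G29290 is lower in csb3, and DIN2 is higher while BGLU16 near it had 571.1 in csb3 and 599.3 in Col-0.

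Of the other SWEET transporters, 15 of 16 have a named probe set, and none of the 15 reached 2-fold in either direction, but 7 of them were below 50 on both arrays and could not be called. SWEET11, which loads sucrose into the phloem of mature leaves, had signals of 1564.7 in csb3 and 1744.6 in Col-0. SWEET2 and SWEET17, which act at the vacuole, had log2 ratios of -0.72 and -0.48. SWEET13 had a log2 ratio of -0.61 and SWEET16 of 0.47. Among 11 other genes that RefSeq names as late embryogenesis abundant proteins, 5 have a named probe set and none reached 2-fold, 3 of them being below 50 on both arrays. These 5 share that name with SAG21, and how close they are to it in sequence was not compared. DI21, the drought-induced gene AT4G15910 and a further LEA protein, was at least 3.11-fold higher in csb3 (155.3 in csb3 and 17.8 in Col-0), but it was picked after its value had been seen. The same holds for the cysteine proteinase gene AT2G27420, which like SAG12 encodes a cysteine proteinase. It was 6.03-fold lower in csb3, with 120.7 in csb3 and 728.4 in Col-0. A further cysteine proteinase gene picked in the same way, CP1, was below 50 on both arrays (26.4 in csb3 and 38.5 in Col-0).

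Within 6 protein-coding genes on each side of the 5 genes, 32 of the 60 neighbours have a named probe set. Of the 32, 3 were higher in csb3 and 2 lower, beside 3.58% and 2.64% of all probe sets named, as these are, by the annotation. Those that were higher are ATPMEPCRB near SAG21 (252.6 in csb3 and 71.5 in Col-0), AT5G13200 near SAG29 (911.1 in csb3 and 400.6 in Col-0) and AT3G60180 near DIN2 (521.0 in csb3 and 207.9 in Col-0). Besides AT2G29290, the gene that was lower is CHLI2 near SAG12 (328.1 in csb3 and 672.4 in Col-0), a subunit of the magnesium chelatase of chlorophyll synthesis. The gene next to SAG21, AT4G02370, had signals of 1021.0 in csb3 and 874.6 in Col-0, and the gene next to SAG12, AT5G45880, was below 50 on both arrays.

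Other genes of senescence and of the nutrient recovery that goes with it were taken from 5 lists with 69 genes besides the members. Of these, 28 have a named probe set, 14 were higher in csb3, none was lower and 14 were neither. Their log2 ratios had a median of 1.01. The median was 0 over all probe sets and 0.08 over those with neither signal floored. For 8 of the 28 the name comes from the study's list of changed genes, and all 8 were higher, so their direction is not independent evidence. Among the 20 named by the annotation, 6 were higher, with a median log2 ratio of 0.53, beside 3.58% of all probe sets named that way. The lists were drawn up with earlier results of these data known, so this count too is a description. That share is low partly because dim probe sets cannot be called. Both signals were below 50 for 8403 of the 22810 probe sets, but for only 1 of the 28 genes. With neither signal floored, 6.44% of probe sets were higher, which is the closer comparison.

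Among the marker genes, 3 of 18 besides the members have a named probe set, and each of the 3 was higher in csb3. SAG101, a lipase-like partner of EDS1 in defence signalling, is named by the annotation and was 4.08-fold higher (211.9 in csb3 and 51.9 in Col-0), with a Col-0 signal that lies just above the floor. DIN6, the asparagine synthetase ASN1 that stores nitrogen as asparagine in dark or sugar-poor tissue, was 10.4-fold higher (2388.6 in csb3 and 229.0 in Col-0). SRG1, an oxoglutarate-dependent dioxygenase, was at least 3.03-fold higher (151.7 in csb3 and 2.8 in Col-0). DIN6 and SRG1 are named through the study's list, so their direction is not independent evidence. Of all probe sets named by the annotation, as SAG101 is, 3.58% were higher. A search of RefSeq names for senescence or dark induction, made after the lists, added SAUR36, at least 1.40-fold higher (69.8 in csb3 and 2.1 in Col-0), and ESP, the epithiospecifier protein, 9.02-fold lower in csb3 (79.7 in csb3 and 718.5 in Col-0). SAUR36 and ESP are also named through the study's list. The search found 5 genes with a named probe set besides the members, of which 3 were higher, 1 was lower and 1 was neither.

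**Figure D4:**
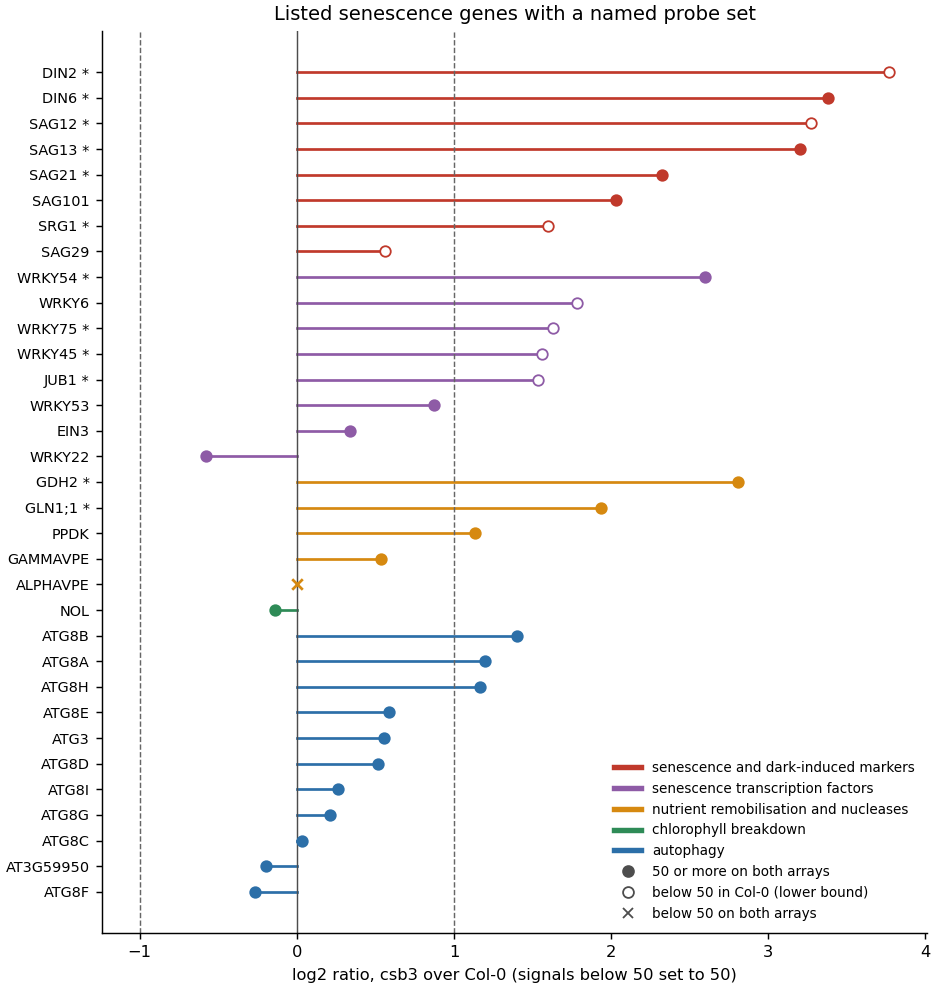
Log2 ratio of csb3 over Col-0 for the listed senescence genes with a named probe set, members included, by role, with dashed lines at 2-fold. Filled points have 50 or more on both arrays, open points are lower bounds, the cross is below 50 on both, and an asterisk marks a gene named through the study's list of changed genes. No gene lies below the lower dashed line, and WRKY22 has the lowest value at -0.58.

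Of 13 transcription factors that regulate leaf senescence, 8 have a named probe set, and 5 of these were higher in csb3. Of the 5, WRKY54, WRKY75, WRKY45 and JUB1 are named through the study's list, so their direction is not independent evidence. Among the 4 factors named by the annotation 1 was higher, beside 3.58% of all probe sets named that way. With neither signal floored, the share of probe sets was 6.44%. WRKY54, which restrains senescence together with WRKY70, was 6.05-fold higher (1037.8 in csb3 and 171.4 in Col-0). WRKY6, whose name comes from the annotation, was at least 3.44-fold higher (171.8 in csb3 and 28.6 in Col-0). WRKY75, which promotes senescence, had 154.6 in csb3 and 1.9 in Col-0, and WRKY45 had 147.7 in csb3 and 25.2 in Col-0. JUB1, a NAC factor that delays senescence, was at least 2.89-fold higher (144.7 in csb3 and 40.4 in Col-0). WRKY53, a promoting factor, fell short of 2-fold with a log2 ratio of 0.87, EIN3 of the ethylene pathway had 0.34 and WRKY22 had -0.58. The factors of this list without a named probe set, NAP and ORE1 among them, were not analysed here.

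The recovery of nitrogen was represented by 5 of 11 listed genes, of which 3 were higher in csb3. Among the 3 of these named by the annotation 1 was higher, beside 3.58% of all probe sets named that way. With neither signal floored, the share of probe sets was 6.44%. GDH2, a glutamate dehydrogenase, was 6.99-fold higher (870.8 in csb3 and 124.5 in Col-0), and the cytosolic glutamine synthetase GLN1;1 was 3.83-fold higher (1608.9 in csb3 and 420.6 in Col-0). Both are named through the study's list, so their direction is not independent evidence. PPDK, pyruvate orthophosphate dikinase, which helps to supply amino acids for export from old leaves, is named by the annotation and had a log2 ratio of 1.14 (1742.4 in csb3 and 792.9 in Col-0). The vacuolar processing enzyme GAMMA-VPE had a log2 ratio of 0.54, and ALPHA-VPE was below 50 on both arrays.

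Autophagy, which delivers cell contents to the vacuole, was represented by 11 of 20 listed genes, all named by the annotation. Of these 11, 3 were higher in csb3, none was lower, and their median log2 ratio was 0.52. All 11 had 50 or more on both arrays, and of all such probe sets 6.44% were higher and 4.39% lower. The 3 encode ATG8 proteins, which coat the forming vesicle. ATG8B was 2.64-fold higher (216.5 in csb3 and 82.1 in Col-0), ATG8A was 2.30-fold higher (721.9 in csb3 and 314.4 in Col-0) and ATG8H was 2.25-fold higher (240.0 in csb3 and 106.9 in Col-0). The other members of this family had log2 ratios between -0.27 (ATG8F) and 0.58 (ATG8E). Of 7 chlorophyll breakdown genes only NOL, a chlorophyll b reductase, has a named probe set, with 336.4 in csb3 and 370.4 in Col-0. RCA, rubisco activase, the only one of 12 nuclear photosynthesis genes with a named probe set, had 7431.8 in csb3 and 12690.9 in Col-0, a log2 ratio of -0.77. Chlorophyll breakdown and nuclear photosynthesis genes, the other side of senescence, were thus read through 1 gene each.

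The genes whose signal pair lay nearest to that of each member were found as a distance over both arrays on the log2 scale after flooring. With 2 arrays this measures only how alike the levels are. Nearest to SAG13 was AT3G18250, with 887.2 in csb3 and 96.8 in Col-0 at a distance of 0.13, followed by AT1G57630 (0.26) and DFL1 (0.29). Nearest to SAG21 was the thioredoxin gene TRX5, with 2507.5 in csb3 and 566.2 in Col-0 at 0.20, followed by ALDH7B4 (0.69) and AT4G08850 (0.73). For SAG12 the nearest were NIMIN1, an NPR1-interacting protein, with 482.3 in csb3 and 21.3 in Col-0, then AT2G37750 and AT4G10500. For DIN2 they were AT2G45220, with 697.7 in csb3 and 7.3 in Col-0, then the chaperone BIP3 and AIG1. All of these are below 50 in Col-0, so they are alike in csb3 level alone. The same is true of SAG29, whose nearest genes AT4G02820, AT5G37540 and AT5G54850 had between 73.5 and 73.8 in csb3.

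Several features of the whole samples moved along with these results. Of 5 root markers 4 have a named probe set, with a summed signal of 1517.6 in csb3 and 85.0 in Col-0. This sum rests on PYK10 and NAI2, both at least 4.82-fold higher in csb3, while EXPA7 and EXPA18 of root hairs were below 50 on both arrays. The 5 flower and 5 seed markers listed have no named probe set and were not analysed here. The ratio of 3′ to 5′ signal, a sign of RNA quality, was higher on the csb3 array for both actin pairs (4.91 in csb3 and 2.06 in Col-0, and 2.22 in csb3 and 1.74 in Col-0) and both GAPDH pairs, and lower for both ubiquitin pairs. All 18 spike-in controls were lower in csb3 (median log2 ratio -0.98), and scaling on them raised all 5 members further (log2 ratio of SAG29 1.54). The part of these features in the results was not tested. In RNA from whole plants, a larger share of senescing tissue and more transcript per cell cannot be told apart.

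**Figure D5:**
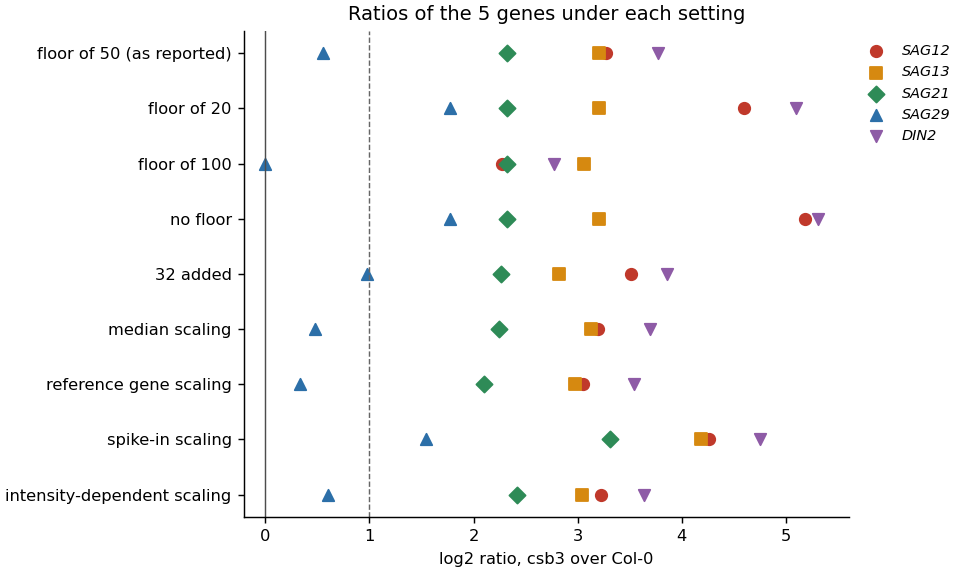
Log2 ratio of csb3 over Col-0 of the 5 genes under the reported setting and 8 alternatives, with the dashed line at 2-fold. SAG12, SAG13, SAG21 and DIN2 lie past 2-fold under all 8, with DIN2 at up to 5.31, while SAG29 runs between 0 and 1.77.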

How the data were processed

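Whole csb3 and Col-0 plants were profiled on Affymetrix ATH1 arrays, 1 array per genotype. The deposited intensity values are signals that the authors computed with MAS5 (version not given in the labels), 1 per probe set, scaled to a common trimmed mean (without the lowest and highest 2%) and neither centred nor logged. The methods describe SAM on triplicates, which 1 array per genotype does not allow. Probe sets were named by the platform annotation (13513 with 1 gene, 503 with several, 8794 unlisted) and RefSeq TAIR10.1, which matched 13436. A further 219 were named by gene code in the study's list of changed genes, and 3 were left unnamed because the sources differed. For genes with several probe sets the brightest on average was used. The array's genome build is not given in the sources used here, so coordinates are not given, and no sequences are shown. Families were taken from RefSeq symbols and synonyms instead of protein similarity.

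Signals below 50 were set to 50, ratios were taken on the log2 scale, and calls were made at 2-fold. The members, lists and rules were chosen with earlier results of these data known. Named are the 5 members, listed genes with 50 or more on 1 array, relatives, neighbours within 6 genes, the 3 nearest patterns per member, and genes said to be picked later. Alternatives were other floors (20, 100, none), 32 added, 4 scalings between arrays, a 4-fold threshold and names from the annotation alone. The counting rule was run on simulated data with 4-fold changes planted well above the floor, which it had to call. That run checks the code only and does not cover planted changes at signals below 50. Python 3.11.15, NumPy 2.4.6, pandas 2.3.3, SciPy 1.17.1, statsmodels 0.14.6 and matplotlib 3.10.9 were used.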

Additional observations from a re-analysis of the deposited data

How the results depend on the processing

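No paired analysis was possible because there is 1 csb3 array and 1 Col-0 array, and neither could be left out. Of 40 recomputed member ratios, 39 stayed above 0 and 1 was 0, and 27 moved by less than the SD of 0.65. Without a floor the log2 ratios were 5.19 (SAG12), 5.31 (DIN2) and 1.77 (SAG29), with a floor of 20 they were 4.60, 5.09 and 1.77, and with a floor of 100 SAG12 had 2.27 and DIN2 2.77. Spike-in scaling gave 4.26 (SAG12), 4.18 (SAG13), 3.31 (SAG21), 1.54 (SAG29) and 4.75 (DIN2). The count of members past 2-fold was 4 or 5 throughout. Of the listed senescence genes, 9 were higher with a floor of 100, 23 with spike-in scaling, 4 at 4-fold and 6 by annotation names alone, against 14. Among family relatives, 4 were higher and 1 lower with a floor of 20, 7 and 5 without a floor, and 9 and none with spike-in scaling, against 2 and none. Of these relatives 2 were lower under median and under intensity-dependent scaling and 3 under reference gene scaling. Over the array, 2698 probe sets were higher and 3559 lower without a floor, 660 and 1174 with reference gene scaling, 7671 and 80 with spike-in scaling and 202 and 60 at 4-fold, against 1041 and 624, and 1291 were lower with a floor of 20. The cause of these shifts was not tested beyond what each setting does by construction. Signal over background limits SAG12, SAG29 and DIN2 most, whose Col-0 signals lie below 50.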
